A study of Drosophila melanogaster with 3 samples.

Results

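The genes that encode the proteins of the cytoplasmic ribosome were described in whole male larvae of *Drosophila melanogaster* that carried different alleles of *multi sex combs* (*mxc*), an X-linked gene. They were chosen by name, as every entry of the deposited expression table in which a gene symbol begins with RpL (large subunit) or RpS (small subunit) with a capital R. This gave 92 of the 15185 entries. Of these, 84 held a single gene and 8 were joined with other genes, with 1 level given for all of them: *RpL22* with *CR42491*, *RpL23A* with *Uhg7*, *RpL28* with a pair of snoRNA genes, *RpS6* with *CR33222*, *RpS7* with a snoRNA gene, *RpS27A* with *Ip259*, *RpL7-like* with *CG34164*, and *RpS28-like* with *CG3769*. The 92 entries were divided into 78 core entries, 1 for each protein (47 of the large subunit and 31 of the small subunit), and 14 minor entries, which were the lower member of a pair of paralogs or a gene named -like. *RpSA*, which carries the symbol *sta* in the table, is not among them and was followed separately.

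RNA-seq libraries were made from 3rd-instar larvae of 3 genotypes, with 1 library for each. *mxcmbn1* larvae develop tumours of the lymph gland, the larval haematopoietic organ, and their stock also carried the *white* allele *w1*. *mxcG43* is a hypomorphic allele without the tumour, and the wild type was Canton S. All larvae were males, which are hemizygous for *mxc*, and each library pooled every tissue of the body. Because there was 1 library for each genotype, no difference given here has a replicate check, no test was made and no p-value is given. The genotype cannot be told apart from other differences between the stocks or their collection. The comparisons with the wild type share the wild-type library and are not independent of each other. Levels are in FPKM, fragments divided by the length of the gene and by the size of the library. Relative to wild type, sequencing depth, estimated from entries of low FPKM, was 1.36 in *mxcmbn1* and 0.970 in *mxcG43*. The FPKM of *mxc* was 3.56 in *mxcmbn1*, 1.94 in *mxcG43* and 1.96 in wild type, and that of *w* was 0.243 in *mxcmbn1*, 5.18 in *mxcG43* and 7.25 in wild type. *roX1*, a male-specific RNA of dosage compensation, was present in all libraries, at 195 in *mxcmbn1*, 201 in *mxcG43* and 247 in wild type.

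The cytoplasmic ribosome is built in the nucleolus from ribosomal RNA and one copy of most of its proteins, and it is completed in the cytoplasm by joining a large and a small subunit. Its protein genes are among the most highly transcribed genes of growing cells. In *Drosophila*, loss of one copy of many of them gives the Minute phenotype, with slow development and short, thin bristles, and several proteins are encoded by paralogs, some of which are used mainly in the germline. Mutations of *RpS6* and of *RpS21* (also called *oho23B*) are known to cause overgrowth of the larval haematopoietic organs.

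The core genes were near their wild-type level in the tumour-bearing larvae, slightly above it in most cases. In *mxcmbn1*, 61 of the 78 core entries were above wild type and 17 were below, with a median ratio of 1.09 (median log2 ratio 0.12, interquartile range 0.02 to 0.28). The lowest ratio was 0.729 and the highest was 1.87. In RNA from whole larvae, fewer cells of a type and less RNA per cell cannot be told apart. In *mxcG43*, 23 were above wild type and 55 were below, with a median ratio of 0.938 (log2 -0.09, interquartile range -0.19 to 0.02). Between the mutants, 71 of the 78 were higher in *mxcmbn1* than in *mxcG43*, with a median ratio of 1.16 (log2 0.22). For 40 of the 78 the order of the libraries was *mxcmbn1*, wild type, *mxcG43* from high to low. Another 21 were above wild type in both mutants, 15 were below wild type in both, and 2 were below it in *mxcmbn1* and above it in *mxcG43*.

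These directions are small and depend in part on how the libraries are scaled. Entries for mitochondrial genes, rRNA and small RNAs held 46.5% of the summed FPKM in *mxcmbn1*, 31.0% in *mxcG43* and 41.6% in wild type. When the libraries were brought to the same sum without these entries, every log2 ratio to wild type moved up by 0.15 in *mxcmbn1* and by 0.11 in *mxcG43*. The core split then became 75 above and 3 below wild type in *mxcmbn1* (median log2 0.27), while in *mxcG43* it became 41 above and 37 below (median log2 0.02), so that the core genes were not lower in *mxcG43* on that scale. With scaling by the upper quartile, the core split was 65 above and 13 below in *mxcmbn1*, and 34 above and 44 below in *mxcG43*. Between the mutants, the number of core entries higher in *mxcmbn1* was 66 to 73 of 78 over the 3 alternative scalings.

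A level 1.5 times that of the other library, or lower by the same factor, was used to describe larger differences, among entries whose higher value reached an FPKM of 1 and whose lower value was not 0. Of the 91 ribosomal protein entries that could be compared between *mxcmbn1* and wild type, 9 were above 1.5-fold, whereas 25.7% of all 11360 entries compared were. Below 1/1.5-fold were 6 of the 91, against 30.4% of all entries. In *mxcG43* relative to wild type, 0 of 92 were above 1.5-fold, against 12.1% of all 11652 entries, and 9 were below, against 14.8%. In *mxcmbn1* relative to *mxcG43*, 11 of 91 were above, against 25.3% of all 11382 entries, and 5 were below, against 30.5%. In every comparison and direction, the share of ribosomal protein entries past the fold was smaller than that of the table, with no test of that difference. Among the core entries alone, 7 of 78 were above 1.5-fold and 0 were below in *mxcmbn1* relative to wild type, and in *mxcG43* 0 were above and 1 was below.

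The spread of the core genes was also set beside that of other well expressed entries. Of the 78 core entries, 61 lay within 0.25 of the core median log2 ratio in *mxcmbn1* relative to wild type, and 64 did so in *mxcG43*. The interquartile range of the core log2 ratio was 0.02 to 0.28 in *mxcmbn1* and -0.19 to 0.02 in *mxcG43*. For the 779 other entries that reached an FPKM of 100 in wild type, the interquartile range of the log2 ratio was -1.22 to 0.14 in *mxcmbn1*, with a median of -0.36, and -0.48 to 0.13 in *mxcG43*, with a median of -0.15. These entries were chosen by their level in wild type, which by itself favours ratios below 1. Their median FPKM in wild type was 208, against 1092 for the core, so that the levels were not matched. Of the 779, 93 (11.9%) were above 1.5-fold and 314 (40.3%) were below 1/1.5-fold in *mxcmbn1*, against 25.7% and 30.4% of all entries.

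**Figure D1:**
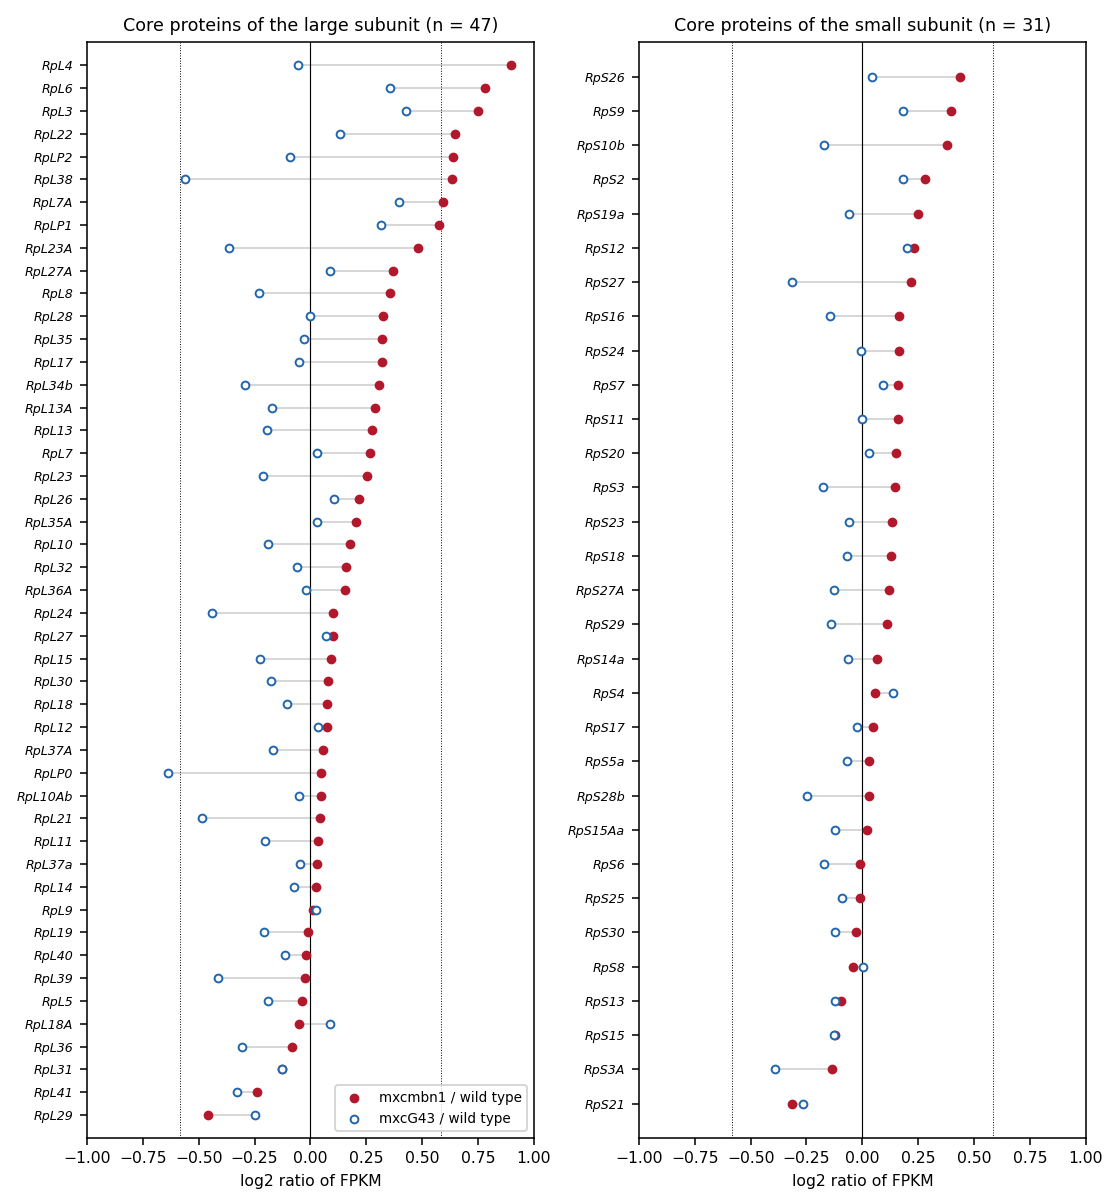
Log2 ratio of FPKM of the 78 core ribosomal protein genes in mxcmbn1 (filled red circles) and mxcG43 (open blue circles) relative to wild type, for the large subunit (left, n = 47) and the small subunit (right, n = 31), ordered by the ratio in mxcmbn1. Dotted lines mark 1.5-fold in either direction; 7 filled circles of the large subunit lie beyond the right line, and all circles of the small subunit lie between the lines.

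The core entries past 1.5-fold in *mxcmbn1* all encode proteins of the large subunit: *RpL4*, *RpL6*, *RpL3*, *RpL22*, *RpLP2*, *RpL38* and *RpL7A*. The median log2 ratio was 0.16 for the 47 large-subunit entries and 0.12 for the 31 small-subunit entries in *mxcmbn1*, -0.11 and -0.07 in *mxcG43* (0.01 and 0.04 on the scale without mitochondrial, rRNA and small RNA entries), both relative to wild type, and 0.26 and 0.16 in *mxcmbn1* relative to *mxcG43*. The medians of the subunits thus lay close together, while the large subunit was more spread, with an SD of the log2 ratio across genes of 0.28 against 0.16 for the small subunit in *mxcmbn1*. The loci of *RpL4*, *RpL3*, *RpL22* and *RpL7A* overlap those of other entries, with which their reads may have been shared, whereas those of *RpL6*, *RpLP2* and *RpL38* do not. In the small subunit the ratio to wild type in *mxcmbn1* ran from 0.804 for *RpS21* to 1.35 for *RpS26*.

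*RpL4* had the highest ratio of the core genes, with an FPKM of 554 in *mxcmbn1*, 286 in *mxcG43* and 297 in wild type, or 1.87 times wild type in *mxcmbn1* and 0.965 times in *mxcG43*. It encodes a large protein that lines part of the exit tunnel of the ribosome. Only the *mxcmbn1* library stood apart for this gene. *RpL6* had an FPKM of 777 in *mxcmbn1*, 578 in *mxcG43* and 452 in wild type (1.72 times wild type in *mxcmbn1* and 1.28 times in *mxcG43*), and *RpL3*, whose protein lies close to the peptidyl transferase centre, had 849 in *mxcmbn1*, 679 in *mxcG43* and 504 in wild type (1.68 times wild type in *mxcmbn1* and 1.35 times in *mxcG43*). *RpL7A* showed the same order with 1073 in *mxcmbn1*, 937 in *mxcG43* and 711 in wild type (1.51 times wild type in *mxcmbn1* and 1.32 times in *mxcG43*). These 3 genes were above wild type in both mutants, and in *mxcG43* they had the highest ratios of all 92 entries. Next in *mxcG43*, after *RpLP1*, came *RpS12*, known in flies for a part in the competition between cells that differ in ribosomal protein genes, with 981 in *mxcmbn1*, 959 in *mxcG43* and 836 in wild type (1.17 times wild type in *mxcmbn1* and 1.15 times in *mxcG43*).

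*RpL22* had an FPKM of 619 in *mxcmbn1*, 433 in *mxcG43* and 395 in wild type, 1.57 times wild type in *mxcmbn1* and 1.10 times in *mxcG43*. Its fly protein carries a long N-terminal extension, and its level here includes that of *CR42491*. *RpL38*, whose mouse counterpart is known for a role in the translation of *Hox* mRNAs, had an FPKM of 1822 in *mxcmbn1*, 796 in *mxcG43* and 1174 in wild type. It was 1.55 times wild type in *mxcmbn1* and 0.678 times wild type in *mxcG43*, and at 2.29 it had the largest ratio between the mutants of the core genes.

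The stalk of the large subunit, which recruits the elongation factors, is formed by RpLP0, RpLP1 and RpLP2. *RpLP1* had an FPKM of 1197 in *mxcmbn1*, 999 in *mxcG43* and 802 in wild type (1.49 times wild type in *mxcmbn1* and 1.25 times in *mxcG43*). *RpLP2* had 1468 in *mxcmbn1*, 885 in *mxcG43* and 944 in wild type (1.56 times wild type in *mxcmbn1* and 0.938 times in *mxcG43*). The base of the stalk, *RpLP0*, had 592 in *mxcmbn1*, 368 in *mxcG43* and 572 in wild type (1.04 times wild type in *mxcmbn1* and 0.643 times in *mxcG43*), and it was the only core gene below 1/1.5-fold in *mxcG43*. Its ratio in *mxcG43* became 0.696 when the libraries were brought to the same sum without mitochondrial, rRNA and small RNA entries, which is within the fold. The 3 stalk genes therefore did not follow one order across the genotypes.

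**Figure D2:**
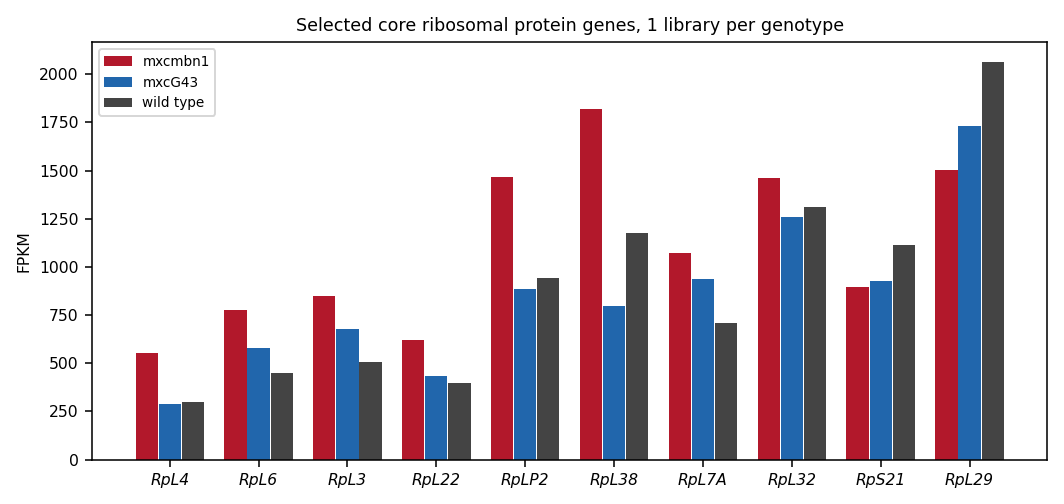
FPKM of 10 core ribosomal protein genes in mxcmbn1 (red), mxcG43 (blue) and wild type (grey), 1 library per bar, on a linear axis from 0. The first 7 are the core genes above 1.5-fold in mxcmbn1, RpL32 is a commonly used reference gene, and RpS21 and RpL29 had the lowest ratios of their subunits in mxcmbn1, at 0.804 and 0.729.

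At the other end of the core, *RpL29* had an FPKM of 1503 in *mxcmbn1*, 1734 in *mxcG43* and 2062 in wild type, 0.729 times wild type in *mxcmbn1* and 0.841 times in *mxcG43*. *RpS21* had 897 in *mxcmbn1*, 929 in *mxcG43* and 1116 in wild type, or 0.804 times wild type in *mxcmbn1* and 0.832 times in *mxcG43*. Both were lower in both mutants, within 1.5-fold. *RpS6*, the substrate of S6 kinase, had an FPKM of 802 in *mxcmbn1*, 716 in *mxcG43* and 807 in wild type, 0.993 times wild type in *mxcmbn1* and 0.886 times in *mxcG43*. Neither of the genes known for haematopoietic overgrowth in their mutants was thus past the fold in either *mxc* mutant. *sta* (RpSA) had 825 in *mxcmbn1*, 563 in *mxcG43* and 587 in wild type (1.41 times wild type in *mxcmbn1* and 0.959 times in *mxcG43*), and *Rack1*, which encodes a further protein of the small subunit, had 481 in *mxcmbn1*, 443 in *mxcG43* and 512 in wild type (0.940 times wild type in *mxcmbn1* and 0.865 times in *mxcG43*).

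*RpL32*, also called *Rp49*, is widely used as a reference gene in qRT-PCR and served as one in the study. Its FPKM was 1464 in *mxcmbn1*, 1259 in *mxcG43* and 1312 in wild type, 1.12 times wild type in *mxcmbn1* and 0.960 times in *mxcG43*. Ordered by the ratio to wild type, it was number 34 of the 78 core genes in *mxcmbn1* and number 32 in *mxcG43*. The median log2 ratio of the core genes taken relative to *RpL32* was -0.03 in both mutants. *RpL32* therefore lay near the middle of the core, and its ratio over the 3 alternative scalings was 1.13 to 1.23 in *mxcmbn1* and 0.963 to 1.04 in *mxcG43*.

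The core genes differed from each other much more in level than in ratio. Their median FPKM was 1097 in *mxcmbn1*, 999 in *mxcG43* and 1092 in wild type, and the ratio of the 75th to the 25th percentile was 1.79 in *mxcmbn1*, 1.93 in *mxcG43* and 1.77 in wild type. The lowest level was that of *RpL34b*, with 366 in *mxcmbn1*, 242 in *mxcG43* and 296 in wild type. The 5 highest in wild type were all of the large subunit. *RpL41*, which encodes the shortest protein of the ribosome (coding length 75 bases), had 7191 in *mxcmbn1*, 6753 in *mxcG43* and 8476 in wild type, *RpL39* had 3851 in *mxcmbn1*, 2942 in *mxcG43* and 3918 in wild type, and *RpL10* had 3930 in *mxcmbn1*, 3041 in *mxcG43* and 3472 in wild type. *RpL5*, which carries the 5S rRNA into the large subunit, had 2973 in *mxcmbn1*, 2676 in *mxcG43* and 3056 in wild type, and *RpL15* had 3100 in *mxcmbn1*, 2486 in *mxcG43* and 2908 in wild type. Each of the 5 was lower in *mxcG43* than in wild type, at 0.751 to 0.876 times its level, and in *mxcmbn1* the ratio ran from 0.848 for *RpL41* to 1.13 for *RpL10*. The choice of these 5 by their level in wild type by itself favours ratios below 1. Because FPKM divides by length and the reads had 51 bases, levels of genes as short as *RpL41* and *RpL39* depend strongly on the length the software assigns to them.

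All entries together held 9.31% of the summed FPKM in *mxcmbn1*, 9.99% in *mxcG43* and 8.56% in wild type. Without mitochondrial, rRNA and small RNA entries, the shares were 17.4% in *mxcmbn1*, 14.5% in *mxcG43* and 14.6% in wild type. The order of *mxcG43* and the other libraries thus differed between the measures. Of the 100 entries with the highest FPKM, 29 were ribosomal protein entries in *mxcmbn1*, 23 in *mxcG43* and 18 in wild type, and 48 in *mxcmbn1*, 34 in *mxcG43* and 26 in wild type without those other classes. The summed FPKM of the core entries was 110639 in *mxcmbn1*, 94148 in *mxcG43* and 102944 in wild type. The summed level of 5 fat body genes (*Lsp1alpha*, *Lsp1beta*, *Lsp1gamma*, *Lsp2*, *Fbp1*) was 8534 in *mxcmbn1*, 18260 in *mxcG43* and 24627 in wild type, and that of 5 salivary glue genes was 2072 in *mxcmbn1*, 23810 in *mxcG43* and 28986 in wild type, so that highly expressed genes of these tissues were lower in *mxcmbn1*. Their part in the shares and ranks of the ribosomal protein genes was not tested.

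The genes were spread over the genome, with 23 entries on 3R, 21 on 2R, 19 on 2L, 14 on 3L, 14 on X and 1 on chromosome 4. The 13 core entries on X, the chromosome of *mxc*, had a median log2 ratio to wild type of 0.07 in *mxcmbn1* and -0.06 in *mxcG43*, near those of all 78. The coding length of the core genes ran from 75 bases in *RpL41* to 1248 bases in *RpL3*. Across genes, Spearman's rho of the log2 ratio to wild type with coding length was 0.24 in *mxcmbn1* and 0.18 in *mxcG43* (n = 78, genes of the same libraries and not independent). In *mxcmbn1* the median log2 ratio was 0.18 for the 23 core genes of at least 600 bases and 0.11 for the 55 shorter ones, and in *mxcG43* it was -0.17 and -0.09.

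The 14 minor entries varied far more than the core. In *mxcmbn1* their ratio to wild type ran from 0.00808 to 1.89 among the 13 that were above 0 in both libraries, and the remaining one was listed at 0. In *mxcG43* all 14 were below wild type, with a median ratio of 0.652 (log2 -0.62). Of the 14, 8 (57.1%) were below 1/1.5-fold, against 14.8% of all entries. On the scale without mitochondrial, rRNA and small RNA entries, 12 of the 14 were below wild type in *mxcG43*, all but *RpL34a* and *RpS15Ab*, and 4 were below 1/1.5-fold. The 6 entries below that fold in *mxcmbn1* and 8 of the 9 in *mxcG43* were minor entries. In *mxcmbn1* these 6 were 46.2% of the 13 compared, against 30.4% of all entries. For 7 of the 12 entries with an FPKM under 100 in wild type, whole numbers of reads could be recovered from the FPKM values, and 1 read was worth 0.0783 to 3.46 FPKM of these genes in wild type. The recovered numbers are the smallest that give the deposited values, and intervals on them cover counting error only. The lowest core level in any library, 242, is far above these steps.

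The largest differences were in the paralogs that were lower in *mxcmbn1*. *RpL10Aa* (3R, 10863088 to 10863872, BDGP5) had an FPKM of 0.337 in *mxcmbn1*, 32.8 in *mxcG43* and 41.7 in wild type, from 3 reads in *mxcmbn1*, 209 in *mxcG43* and 274 in wild type. It was 0.00808 times wild type in *mxcmbn1* (95% exact interval of the ratio 0.00166 to 0.0239) and 0.787 times in *mxcG43* (0.654 to 0.945). Its partner *RpL10Ab* had 1699 in *mxcmbn1*, 1587 in *mxcG43* and 1643 in wild type, so that *RpL10Aa* made up 0.0198% of the pair in *mxcmbn1*, 2.03% in *mxcG43* and 2.48% in wild type. *RpL37b* (2R, 18987580 to 18987982) had 2.30 in *mxcmbn1*, 23.8 in *mxcG43* and 36.5 in wild type, from 7 reads in *mxcmbn1*, 52 in *mxcG43* and 82 in wild type, or 0.0630 times wild type in *mxcmbn1* (interval 0.0245 to 0.136) and 0.654 times in *mxcG43* (0.453 to 0.937). Its partner *RpL37a*, a different gene from *RpL37A*, had 370 in *mxcmbn1*, 352 in *mxcG43* and 363 in wild type, nearly the same in all libraries.

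*RpS19b* (3R, 19758451 to 19759252) had an FPKM of 8.05 in *mxcmbn1*, 30.8 in *mxcG43* and 60.8 in wild type, 0.132 times wild type in *mxcmbn1* and 0.507 times in *mxcG43*, and its share of the pair with *RpS19a* was 1.31% in *mxcmbn1*, 5.93% in *mxcG43* and 10.7% in wild type. *RpL22-like* (2R, 19134133 to 19135410), known to be used in the male germline, had 3.69 in *mxcmbn1*, 14.4 in *mxcG43* and 17.4 in wild type, 0.213 times wild type in *mxcmbn1* and 0.831 times in *mxcG43*. Its partner *RpL22* was higher in *mxcmbn1*, and the share of *RpL22-like* in the pair was 0.592% in *mxcmbn1*, 3.22% in *mxcG43* and 4.21% in wild type. *RpS10a* had 7.01 in *mxcmbn1*, 6.84 in *mxcG43* and 12.6 in wild type, from 43 reads in *mxcmbn1*, 30 in *mxcG43* and 57 in wild type, and was lower than wild type in both *mxcmbn1* (0.556 times, interval 0.366 to 0.841) and *mxcG43* (0.543 times, 0.337 to 0.859). The interval of the ratio of *mxcmbn1* to *mxcG43* was 0.628 to 1.69. Its locus overlaps 3 other entries.

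Both minor entries related to *RpS28b* were at or near 0 in *mxcmbn1*. *RpS28a* was listed at 0 in *mxcmbn1*, at 3.57 in *mxcG43* and at 24.2 in wild type, from 0 reads in *mxcmbn1*, 1 in *mxcG43* and 7 in wild type. Its wild-type level was 3.16 times that of a floor of 3 reads in *mxcmbn1*, which leaves out counting error. The exact interval of the ratio of *mxcmbn1* to wild type was 0 to 0.512. The ratio of *mxcG43* to wild type was 0.147, with an interval of 0.00327 to 1.15 that included 1, so that a difference was not detectable there at this depth. The entry of *RpS28-like* with *CG3769* had 0.173 in *mxcmbn1*, 2.99 in *mxcG43* and 8.38 in wild type, from 3 reads in *mxcmbn1*, 37 in *mxcG43* and 107 in wild type, or 0.0207 times wild type in *mxcmbn1* (0.00420 to 0.0621) and 0.357 times in *mxcG43* (0.238 to 0.523). The reads of its genes were not separated. *RpS28b* itself had 2631 in *mxcmbn1*, 2174 in *mxcG43* and 2581 in wild type.

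Markers of more than one tissue were lower in *mxcmbn1*, as these entries were. All 5 fat body genes and all 5 salivary glue genes were below 1/1.5-fold, against 30.4% of all entries. The 3 genes of a muscle list were 0.663 to 0.962 times wild type in *mxcmbn1*, and 1 of them (33.3%) was below 1/1.5-fold. The median log2 ratios of the fat body and glue genes to wild type were -1.96 and -4.59 in *mxcmbn1*, and -0.79 and -0.45 in *mxcG43*. Members of both lists went both ways in *mxcG43*. Of the 5 fat body genes, 1 was above 1.5-fold there (*Fbp1*, 3.63 times wild type) and 3 were below 1/1.5-fold. Of the 5 glue genes, 1 was above (*Sgs4*, 1.69 times) and 2 were below, against 12.1% and 14.8% of all entries. All 16 genes of a list for spermatocytes and later male germline cells, such as *Mst87F*, *dj*, *can* and *fzo*, were also below 1/1.5-fold in *mxcmbn1*. The summed FPKM of these 16 was 18.6 in *mxcmbn1*, 1111 in *mxcG43* and 1491 in wild type. Their median log2 ratio to wild type was -6.62 in *mxcmbn1* and -0.37 in *mxcG43*, and none of them was at 0 in any library. Of the 6 genes of an early germline list, 4 were above 1.5-fold in *mxcmbn1* relative to wild type, against 25.7% of all entries. Below 1/1.5-fold were 2, against 30.4% of all entries, and the median ratio of the list was 2.63. *nos*, *zpg*, *piwi* and *aub* were 5.31, 4.28, 4.01 and 1.72 times wild type, and *bam* and *vas* were 0.224 and 0.125 times wild type. The first 4 had low levels, with an FPKM of 0.619, 0.994, 1.48 and 2.12 in wild type, so that their ratios are uncertain. *bam* and *vas* had 27.7 and 2.31 in wild type. In *mxcG43*, 1 of the 5 genes compared was above 1.5-fold (*nos*) and 2 were below (*bam* and *vas*), against 12.1% and 14.8% of all entries. The paper describes the sequenced *mxcmbn1* and wild-type larvae as equal in developmental stage. It also reports that some *mxcmbn1* larvae were still in the 3rd instar after its control larvae had pupated. The part of the germline, fat body, salivary gland or larval stage in the levels of the paralogs was not tested.

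**Figure D3:**
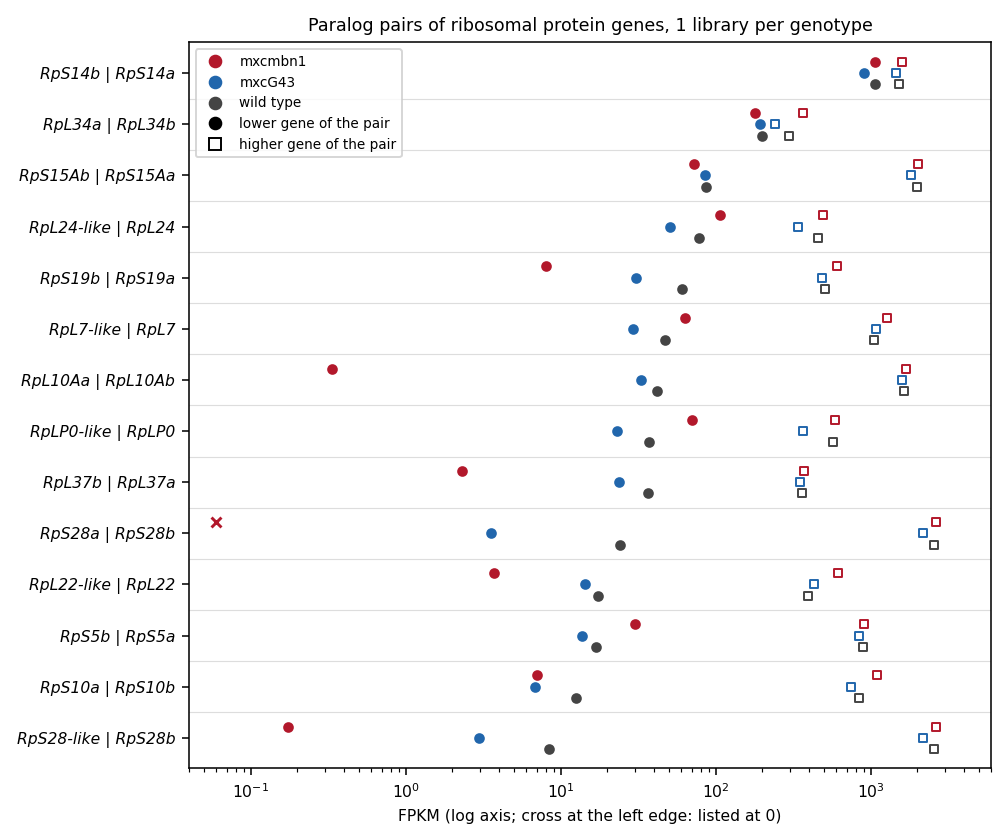
FPKM on a log axis of the lower (filled circles) and the higher gene (open squares) of 14 paralog pairs in mxcmbn1 (red), mxcG43 (blue) and wild type (grey), with 1 library each and rows ordered by the lower gene in wild type. The cross marks RpS28a, listed at 0 in mxcmbn1; RpL10Aa, RpL37b, RpS19b, RpL22-like and the entries related to RpS28b lie far to the left in mxcmbn1, while their partners are within 1.57-fold of wild type.

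Other minor entries were higher in *mxcmbn1*. *RpLP0-like* (2R, 5983985 to 5987091) had an FPKM of 69.9 in *mxcmbn1*, 23.2 in *mxcG43* and 37.1 in wild type, from 793 reads in *mxcmbn1*, 188 in *mxcG43* and 310 in wild type. It was 1.89 times wild type in *mxcmbn1* (interval 1.65 to 2.16), the highest ratio of the 92 entries, and 0.625 times wild type in *mxcG43* (0.519 to 0.752). Over the 3 alternative scalings the ratio in *mxcG43* was 0.627 to 0.677, so that its place past the fold depended on the scaling. The entry of *RpL7-like* with *CG34164* had 63.2 in *mxcmbn1*, 29.5 in *mxcG43* and 47.2 in wild type, and *RpL24-like* had 107 in *mxcmbn1*, 50.6 in *mxcG43* and 77.8 in wild type. These were 1.34 and 1.37 times wild type in *mxcmbn1*, and 0.624 and 0.650 times in *mxcG43*. Over the 3 alternative scalings the ratios in *mxcG43* reached 0.676 and 0.704, within the fold. The yeast counterparts of all 3 genes (Mrt4, Rlp7 and Rlp24) are assembly factors of the large subunit that leave it before it is used in translation.

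*RpS5b*, known for its use in the germline of females, had an FPKM of 30.2 in *mxcmbn1*, 13.7 in *mxcG43* and 16.9 in wild type, from 322 reads in *mxcmbn1*, 104 in *mxcG43* and 133 in wild type. It was 1.79 times wild type in *mxcmbn1* (interval 1.45 to 2.20) and 0.806 times in *mxcG43* (0.618 to 1.05), so that it went the other way from *RpS19b*, *RpL22-like* and *RpL37b*. *RpS5a* had 905 in *mxcmbn1*, 845 in *mxcG43* and 887 in wild type. The share of *RpS5b* in the pair was 3.23% in *mxcmbn1*, 1.59% in *mxcG43* and 1.87% in wild type.

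In the last 3 pairs, the minor gene was within 1.5-fold of wild type in both mutants. *RpS15Ab* had 72.4 in *mxcmbn1*, 85.6 in *mxcG43* and 87.2 in wild type, and its share of the pair with *RpS15Aa* (2010 in *mxcmbn1*, 1818 in *mxcG43* and 1981 in wild type) was 3.48% in *mxcmbn1*, 4.50% in *mxcG43* and 4.21% in wild type. *RpL34a* had 180 in *mxcmbn1*, 194 in *mxcG43* and 199 in wild type (*RpL34b* 366 in *mxcmbn1*, 242 in *mxcG43* and 296 in wild type), with a share of 32.9% in *mxcmbn1*, 44.6% in *mxcG43* and 40.2% in wild type. *RpS14b* had 1065 in *mxcmbn1*, 908 in *mxcG43* and 1073 in wild type (*RpS14a* 1603 in *mxcmbn1*, 1463 in *mxcG43* and 1530 in wild type), with a share of 39.9% in *mxcmbn1*, 38.3% in *mxcG43* and 41.2% in wild type. The *RpS14* genes lie next to each other on X (7827775 to 7828710 and 7828931 to 7829832) and are near-identical copies, so that the division of reads between them is uncertain, as it can be for other pairs of close paralogs.

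In *mxcmbn1*, a list of genes that build the ribosome differed more from wild type, by median ratio, than the core genes that encode its parts. Like the other lists, it was chosen with earlier results of these data known. Of 24 genes found, of 28 listed, for nucleolar processing, assembly and RNA polymerase I, 23 were higher in *mxcmbn1* than in wild type and 17 (70.8%) were above 1.5-fold, against 25.7% of all entries compared, with a median ratio of 1.77 (log2 0.83). In *mxcG43* 1 was above 1.5-fold and 0 were below 1/1.5-fold, against 12.1% and 14.8% of all entries, with a median log2 ratio of -0.06, which turned to 0.05 on the scale without mitochondrial, rRNA and small RNA entries. *Nopp140*, a nucleolar phosphoprotein, had an FPKM of 22.7 in *mxcmbn1*, 10.4 in *mxcG43* and 8.82 in wild type, and *RpI135*, a subunit of RNA polymerase I, had 7.70 in *mxcmbn1*, 2.76 in *mxcG43* and 3.10 in wild type. *RpI12*, another subunit, had the highest ratio of the list, with 15.4 in *mxcmbn1*, 7.63 in *mxcG43* and 4.88 in wild type, and was the gene past the fold in *mxcG43*. *Fib*, the rRNA methyltransferase fibrillarin, had 21.6 in *mxcmbn1*, 13.3 in *mxcG43* and 15.0 in wild type, within the fold. The levels of the biogenesis genes were much lower than those of the ribosomal protein genes, with a median FPKM of 22.8 in *mxcmbn1*, 11.6 in *mxcG43* and 11.2 in wild type. The levels were thus not matched.

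The medians of the translation factors in *mxcmbn1* lay between those of the core ribosomal proteins and the biogenesis genes. Of 17 initiation factors found of 18 listed, 5 (29.4%) were above 1.5-fold in *mxcmbn1*, near the 25.7% of all entries, and 1 (5.88%) was below 1/1.5-fold, against 30.4% (median log2 ratio 0.29). Their levels included *pAbp*, the poly(A) binding protein, at 765 in *mxcmbn1*, 328 in *mxcG43* and 404 in wild type and the cap binding *eIF-4E* at 96.8 in *mxcmbn1*, 134 in *mxcG43* and 147 in wild type. The 7 elongation factors had a median log2 ratio of 0.22 in *mxcmbn1*, with 4 above wild type and 3 below. Only *Ef1alpha48D* (14.3% of the list) was above 1.5-fold, against 25.7% of all entries, and 0 were below 1/1.5-fold, against 30.4%. *Ef1alpha48D*, which brings aminoacyl-tRNA to the ribosome, had 4071 in *mxcmbn1*, 3191 in *mxcG43* and 2447 in wild type, or 1.66 times wild type in *mxcmbn1* and 1.30 times in *mxcG43*. In *mxcG43* both lists had a median log2 ratio of -0.04, which turned to 0.08 for both on the scale without mitochondrial, rRNA and small RNA entries. The 71 proteins of the mitochondrial ribosome had a median log2 ratio of 0.08 in *mxcmbn1*, with 9.86% above and 8.45% below the fold (25.7% and 30.4% of all entries), and 0.06 in *mxcG43*, with 7.04% above and 11.3% below (12.1% and 14.8% of all entries).

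Among 11 genes, of 13 listed, for growth control and for the response to loss of ribosomal proteins, *dm*, the fly Myc gene and a regulator of ribosome production, had an FPKM of 37.9 in *mxcmbn1*, 9.21 in *mxcG43* and 12.7 in wild type, 2.99 times wild type in *mxcmbn1* and 0.727 times in *mxcG43*. *Xrp1*, which encodes a transcription factor active in cells with a lost ribosomal protein gene copy, had 337 in *mxcmbn1*, 151 in *mxcG43* and 166 in wild type (2.03 times wild type in *mxcmbn1* and 0.909 times in *mxcG43*), and *S6k*, the kinase of RpS6, had 43.1 in *mxcmbn1*, 19.4 in *mxcG43* and 23.5 in wild type (1.84 times wild type in *mxcmbn1* and 0.827 times in *mxcG43*). *Thor*, the fly 4E-BP, had 858 in *mxcmbn1*, 716 in *mxcG43* and 954 in wild type (0.900 times wild type in *mxcmbn1* and 0.751 times in *mxcG43*). Of the 11, 6 (54.5%) were above 1.5-fold in *mxcmbn1*, against 25.7% of all entries, and 0 were below 1/1.5-fold. These 6 also included *TSC1* (1.98 times wild type), *foxo* (1.67 times) and *gig* (1.51 times). In *mxcG43* 0 were above and 1 (9.09%) was below, against 12.1% and 14.8% of all entries. The median log2 ratio of the list to wild type was 0.60 in *mxcmbn1* and -0.14 in *mxcG43*. The 8 genes of a haemocyte list were all above 1.5-fold in *mxcmbn1*, against 25.7% of all entries, with a summed FPKM of 1208 in *mxcmbn1*, 169 in *mxcG43* and 174 in wild type. Their part in the levels of the ribosomal protein, biogenesis and growth genes was not tested.

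**Figure D4:**
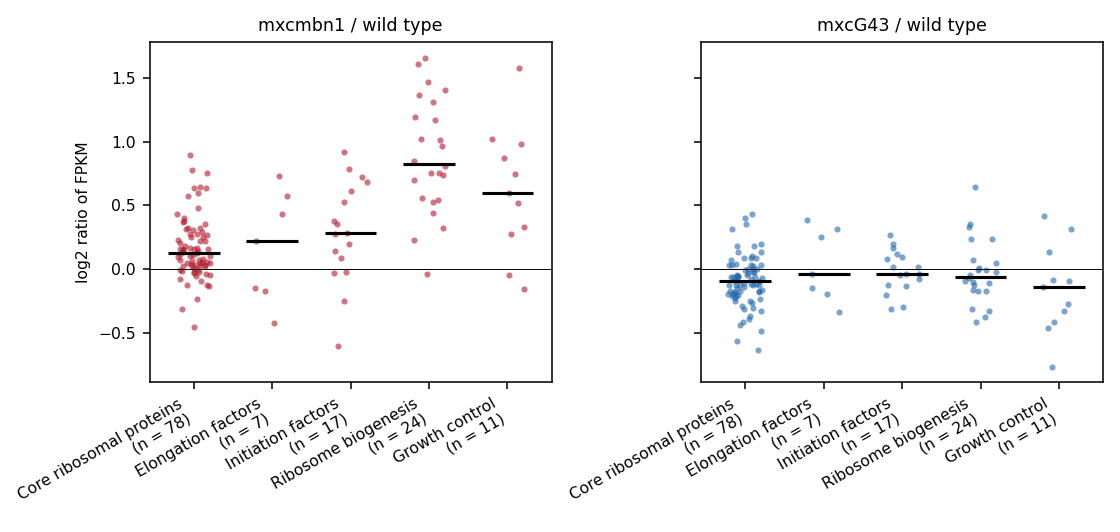
Log2 ratio of FPKM relative to wild type in mxcmbn1 (left) and mxcG43 (right) for the core ribosomal protein genes (n = 78) and lists of elongation factors (n = 7), initiation factors (n = 17), ribosome biogenesis genes (n = 24) and growth control genes (n = 11), with 1 point per gene and the median as a bar. In mxcmbn1 the medians are 0.12, 0.22, 0.29, 0.83 and 0.60 in this order, and in mxcG43 they lie between -0.14 and -0.04, or between -0.02 and 0.08 on the scale without mitochondrial, rRNA and small RNA entries.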

How the data were processed

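Total RNA of whole 3rd-instar male larvae was made into strand-specific libraries and sequenced as single-end reads of 51 bp, with 1 library for each genotype. By the submitters' processing notes, the authors checked reads with FastQC 0.11.5, aligned them to BDGP5 with TopHat2 2.0.6 and quantified genes with Cufflinks. They deposited FPKM values for 15185 entries, 285 of which join several genes. The annotation and the read filter are not given in the sources used here.

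Ratios of deposited FPKM were taken with no pseudocount for entries whose higher value reached an FPKM of 1 and whose lower value was not 0, and described against 1.5-fold. No test was made, since there is 1 library for each genotype. Entries under an FPKM of 2 gave relative depths of 1.36 (*mxcmbn1* to wild type) and 0.970 (*mxcG43* to wild type). Reads of members under an FPKM of 100 were searched up to 1000 wild-type reads within 0.003 reads, with a floor of 3 reads and 95% exact intervals. All 92 entries were matched to the BDGP6 annotation, which was used only for symbols and coding length. Coordinates are BDGP5, counted from 1.

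Members and gene lists were chosen with earlier results of these data known. Genes were named by rule: paralogs, *RpL32*, the 5 highest and 5 lowest ratios in each comparison, the 5 highest levels in wild type, members at 0, and examples of each list. *RpLP2*, *RpL29*, *RpS6*, *RpS26* and *RpS21* were named after their values were seen. Alternatives covered scaling, minimum FPKM, pseudocount, fold, and joined, overlapping or minor entries. The steps were tested on simulated data. The analysis ran in Python 3.11.15 with pandas 2.3.3, numpy 2.4.6, matplotlib 3.10.9 and scipy 1.17.1.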

Additional observations from a re-analysis of the deposited data

Results flagged for a closer look

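*RpLP0-like* stood on opposite sides of wild type in the mutants, at 1.89 times wild type in *mxcmbn1* and 0.625 times in *mxcG43*, both past 1.5-fold. Both ratios share the wild-type library, and the difference between the mutants was not tested. Over the 3 alternative scalings the ratio in *mxcG43* reached 0.677, within 1.5-fold.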

How the results depend on the processing

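With libraries at the same sum without rRNA, mitochondrial and small RNA entries, the median log2 ratio of all ribosomal protein entries to wild type was 0.25 in *mxcmbn1* and -0.01 in *mxcG43*, 4 entries were below 1/1.5-fold in *mxcG43*, the share of the summed FPKM was 17.4% in *mxcmbn1* and 14.6% in wild type, and, among list medians, a check chosen after seeing the data, that of the large subunit in *mxcG43* turned to 0.01. On the same scale the medians in *mxcmbn1* were 0.97 for biogenesis, 0.44 for initiation, 0.37 for elongation, 0.74 for growth control and 0.23 for mitochondrial ribosomal proteins, and in *mxcG43* they were 0.05, 0.08, 0.08, -0.02 and 0.17. With a 2-fold threshold, 0 entries were above in *mxcmbn1* relative to wild type and 5 relative to *mxcG43*, and 2 were below in *mxcG43* relative to wild type. Without entries whose locus overlaps another, 4 were above 1.5-fold in *mxcmbn1* relative to wild type and 7 relative to *mxcG43*, of 49 left, and the shares were 4.70% in *mxcmbn1*, 4.85% in *mxcG43* and 4.22% in wild type. With 1 entry per protein, 0 were below 1/1.5-fold in *mxcmbn1* relative to wild type and 0 relative to *mxcG43*, 7 were above relative to *mxcG43*, and 1 was below in *mxcG43* relative to wild type; the fewer entries follow from leaving out the minor ones. With 1 added to FPKM, the share in *mxcmbn1* became 0.0786% for *RpL10Aa*, 0.0380% for *RpS28a* and 0.0446% for *RpS28-like*. Otherwise the cause was not tested. With scaling by the upper quartile, 6 entries were below 1/1.5-fold in *mxcG43* relative to wild type, and 12 core entries were lower in *mxcmbn1* than in *mxcG43*. With the median ratio, 11 core entries were lower in *mxcmbn1* than in wild type. Shares of pairs with an overlapping locus could not be given without overlapping entries. No paired analysis was possible because each genotype has 1 library. Depth limits the entries with few reads, *RpS28a* most.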
